A study of Mus musculus with 18 samples.

Results

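The 10 genes described here encode the mouse TGF-β ligands Tgfb1, Tgfb2 and Tgfb3, the latent TGF-β binding proteins Ltbp1, Ltbp2 and Ltbp3, the signalling receptors Tgfbr1 and Tgfbr2, the inhibitory Smad Smad7 and the TGF-β-induced matrix protein Tgfbi. They were taken by symbol from the 52636 genes of the deposited RNA-Seq count table. The libraries came from epidermal cells of C57BL/6 mice. The cells were sorted as EpCAM+ CD45- CD140a- CD31- by the methods, although the source given in the labels is whole skin. All mice carried floxed Zfp36, the gene for the RNA-binding protein tristetraprolin (TTP). Zfp36 fl/fl mice without Cre were the controls, and in Zfp36 ΔK14 littermates (named ΔEP by the study) a Cre transgene under the human keratin 14 promoter deleted Zfp36 in keratinocytes. Each genotype gave 3 groups. Mock mice received vehicle, Treated libraries came from nontumoral skin beside tumors after the carcinogen DMBA followed by repeated TPA, and Tumor libraries came from papillomas of the same protocol, which was begun in young adult animals. Each group held 3 libraries except mock ΔK14, whose replicates 2 and 3 carried the same count for all genes, so that they entered once, leaving 2 there and 17 in all. Nothing in the sources used here says how many mice, or how many papillomas, went into a library, so p-values measure the spread between these libraries.

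TGF-β is secreted as a latent dimer, folded inside its own propeptide. Latent TGF-β binding proteins tie that complex to the extracellular matrix, and integrins or proteases release the ligand. Free ligand joins a type II receptor (Tgfbr2) with a type I receptor (Tgfbr1), which phosphorylates Smad2 and Smad3, while Smad7 blocks this step. In epidermis the pathway restrains keratinocyte division, and in skin tumors it is also known for roles in invasion. TTP binds AU-rich elements in 3′UTRs and hastens the decay of the bound mRNA.

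Total counts ran from 2808550 to 9617985 per library, and all 10 members passed the low-count filter over the 6 groups, with 18252 genes. Levels are given as CPM, the counts scaled to a common library size after TMM normalization. The targeted gene followed its label in every library. Zfp36 stood between 152 and 716 CPM in the 9 fl/fl libraries and between 10.1 and 38.6 CPM in the 8 ΔK14 libraries. The epithelial gate gene Epcam was present in every library, at 87.9 to 466 CPM. Ptprc (CD45) stood at 0 to 1.51 CPM, Pdgfra (CD140a) at 0.502 to 24.7 CPM and Pecam1 (CD31) at 6.42 to 37.0 CPM. Replicate 1 of both mock groups stood apart from the other mock libraries on the second principal component (34.0 and 32.8 against -55.3 to -50.4). In these 2 libraries the summed CPM of 7 basal keratinocyte markers was 3306 and 3402, against 15369 to 17284 in the other mock libraries. Among papillomas, fl/fl replicate 1 had the lowest total and 19219 genes with a count, and its score on the first component (67.7) was near the ΔK14 tumors (69.5 to 81.3) and away from the other fl/fl tumors (32.0 and 41.0). Many of the results that rest on these 3 libraries are given with and without them.

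Because the groups differ in TTP, the AU-rich heptamer TATTTAT was counted on the sense strand of the longest annotated 3′UTR of each gene. It occurred in 27.6% of 20939 genes and in 3 of the 10 members, Tgfb2 and Tgfbr2 with 2 copies each and Smad7 with 1. The other 7 had none, among them Tgfb1, whose 3′UTR is 135 bases long. The sites of Tgfb2 and Tgfbr2 are shown with 10 bases on either side, from GRCm38 transcripts, with the heptamer in capitals.
Tgfb2, chr1:186624933-186624959, minus strand, 499 bases after the stop codon: aacagtgggtTATTTATtgtgtgttac
Tgfb2, chr1:186623867-186623893, minus strand, 1565 bases after the stop codon: ttaactcctaTATTTATggactctctt
Tgfbr2, chr9:116086404-116086430, minus strand, 3958 bases after the stop codon: cccatgtggcTATTTATtccaggactg
Tgfbr2, chr9:116085445-116085471, minus strand, 4917 bases after the stop codon: tgaacacactTATTTATaacgatcaca
The first Tgfb2 copy lies within the nonamer TTATTTATT, which 7.66% of genes hold. These matches describe letters only, and no binding was measured here.

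Tgfb1 (ENSMUSG00000002603, chr7:25687002-25705077), the most studied of the ligands in epidermis, was highest in papillomas lacking TTP. In mock skin it measured 45.0, 28.5 and 27.9 CPM in fl/fl and 37.4 and 30.6 CPM in ΔK14, and in treated skin 45.5, 46.9 and 55.3 CPM in fl/fl and 44.1, 31.3 and 34.5 CPM in ΔK14. In papillomas it reached 92.1, 113 and 142 CPM in ΔK14, and 106, 38.6 and 39.7 CPM in fl/fl. All ΔK14 tumors thus lay above all skin libraries, whereas in fl/fl only replicate 1 did. In ΔK14, Tgfb1 rose 2.96-fold from treated skin to tumor (log2 fold change 1.57, SE 0.21, adjusted p = 0.00141, edgeR's quasi-likelihood test with Benjamini-Hochberg adjustment over all genes, n = 3 and 3), and this call held without any single library. Against mock skin it rose 3.18-fold (1.67, SE 0.29, adjusted p = 0.0197, edgeR, n = 3 and 2). That call was lost without tumor replicate 1, 2 or 3 (edgeR's adjusted p 0.0514, 0.0867 and 0.0909). In fl/fl the tumor differences were 0.27 (SE 0.39) against treated and 0.81 (SE 0.45) against mock skin, with adjusted p = 0.639 and 0.299 by edgeR.

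**Figure D1:**
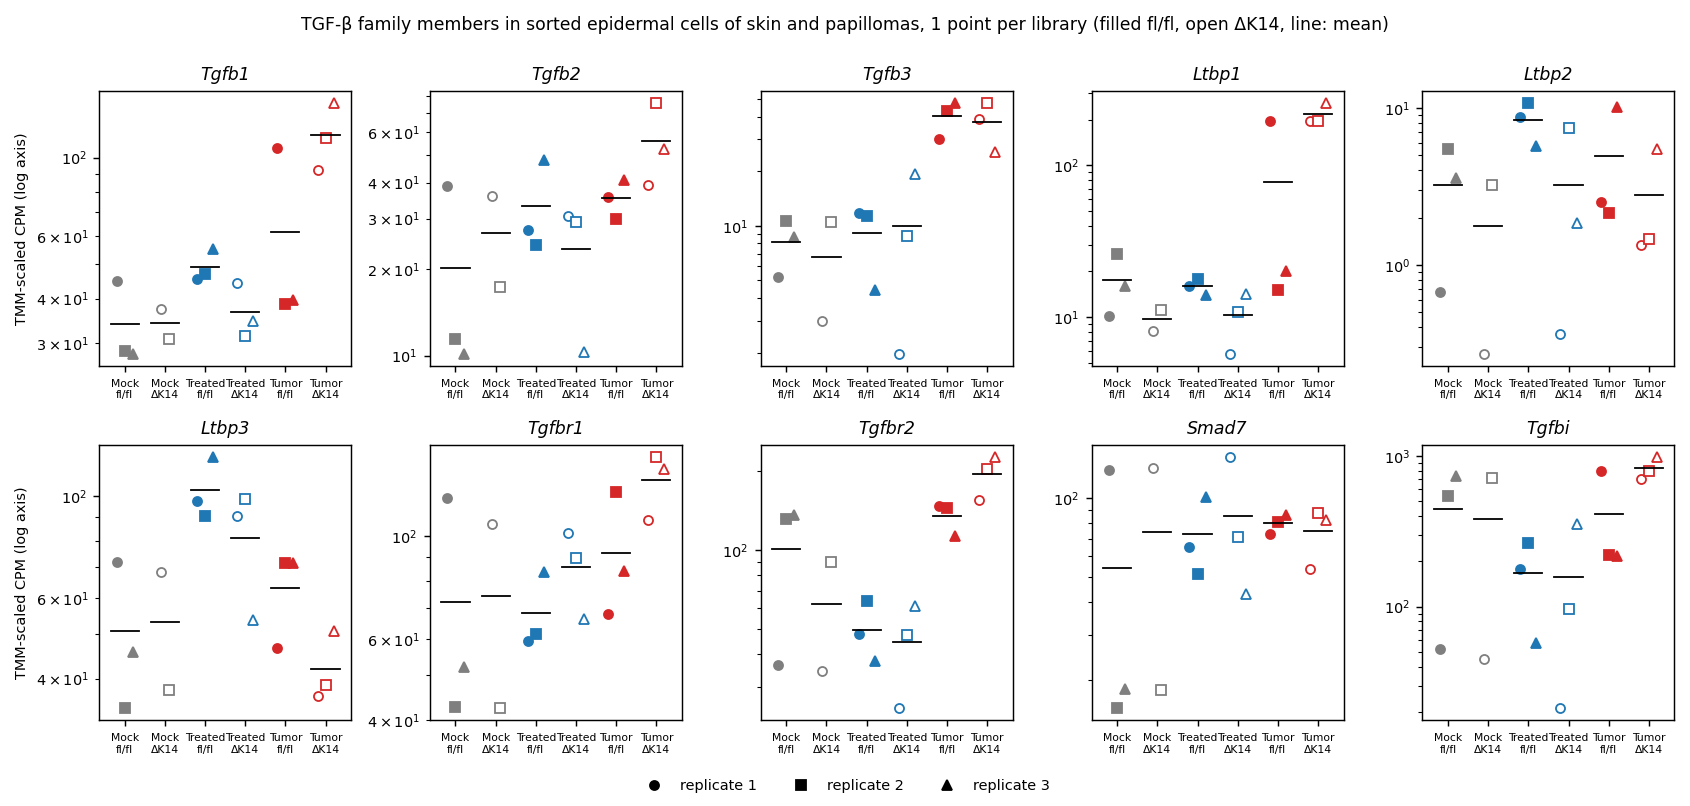
CPM of each of the 10 genes on a log axis, 1 point per library, by stage and genotype (grey mock, blue treated, red tumor, filled fl/fl, open ΔK14, marker shape for the replicate, black line for the group mean). Tgfb3 and Tgfbr2 are higher in the tumors of both genotypes than in treated skin, with Tgfbr2 in fl/fl tumors (113 to 148) overlapping mock fl/fl skin (36.3 to 136), while Ltbp1 stands near 200 CPM in the 3 ΔK14 tumors and in 1 fl/fl tumor (197 to 257) and at 15.1 and 19.99 in the other 2.

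Tgfb3 (ENSMUSG00000021253, chr12:86056745-86079041) was the ligand that rose in the papillomas of both genotypes. Skin libraries held 1.97 to 19.3 CPM, with 5.22, 10.6 and 8.70 in mock fl/fl, 2.98 and 10.5 in mock ΔK14, 11.7, 11.4 and 4.45 in treated fl/fl and 1.97, 8.75 and 19.3 in treated ΔK14. Tumors held 30.1, 43.2 and 47.5 CPM in fl/fl and 38.7, 47.6 and 25.6 CPM in ΔK14. Every tumor lay above every skin library, and the genotypes overlapped within each stage. The rise from treated skin was 4.36-fold in fl/fl (2.12, SE 0.38, adjusted p = 0.00862) and 3.52-fold in ΔK14 (1.82, SE 0.59, adjusted p = 0.0406), and from mock skin 4.88-fold (2.29, SE 0.37, adjusted p = 0.0243) and 5.32-fold (2.41, SE 0.58, adjusted p = 0.0393), all by edgeR. The fl/fl call against treated skin held without any single library.

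The other Tgfb3 calls were lost without some single libraries. Against mock skin, the fl/fl call for Tgfb3 was lost without mock replicate 2 or 3 (edgeR's adjusted p 0.1002 and 0.102) and without tumor replicate 2 or 3 (0.0960 and 0.119). In ΔK14 the Tgfb3 call against mock skin was lost without tumor replicate 1, 2 or 3 (0.120, 0.140 and 0.0964), and the call against treated skin was lost without treated replicate 2 (0.125) or tumor replicate 1, 2 or 3 (0.0838, 0.109 and 0.0619). The difference kept its direction each time. Under total-count scaling the ΔK14 call for Tgfb3 against treated skin was also lost (1.40, adjusted p = 0.0775, edgeR).

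Tgfb2 (ENSMUSG00000039239, chr1:186622792-186705989) varied more among skin libraries than between groups. It measured 39.0, 11.4 and 10.2 CPM in mock fl/fl, 36.0 and 17.3 in mock ΔK14, 27.5, 24.3 and 48.0 in treated fl/fl and 30.7, 29.2 and 10.3 in treated ΔK14. Tumors held 35.6, 29.8 and 41.0 CPM in fl/fl and 39.1, 75.7 and 52.2 CPM in ΔK14, so that ΔK14 tumors lay above both ΔK14 skin groups. Its largest tumor difference, in ΔK14 against treated skin, was 1.14 (SE 0.41) and missed the threshold (adjusted p = 0.0580, edgeR). It passed in DESeq2 (adjusted p = 0.0236), in edgeR's exact test (0.0275), with no low-count filter (2.01e-05), with the replicate number as a block (0.0432) and without treated replicate 1 (1.37, adjusted p = 0.0390, edgeR). Without mock replicate 1, fl/fl tumors exceeded mock skin by 1.71 (adjusted p = 0.00953, edgeR). In ΔK14 the difference was then 1.65, with a single mock library left. The high Tgfb2 values of both mock replicates 1 went with their low basal marker sums, and the part of cell composition in them was not tested.

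Per kilobase of exon, which allows the 3 ligands to be compared within a library, Tgfb1 made up 44.9% to 63.0% of the summed ligand level in 15 of 17 libraries. The exceptions were fl/fl tumor replicates 2 and 3, where Tgfb1 held 29.96% and 27.1% and Tgfb3 49.9% and 48.5%. Tgfb3 averaged 41.0% ± 14.2 (SD, n = 3) in fl/fl tumors and 25.5% ± 7.63 in ΔK14 tumors, against 15.5% to 21.4% as group means in skin. These shares use the union of annotated exons, which for Tgfb1 (5042 bases) is longer than its longest coding transcript (2175 bases). With coding transcript lengths, a choice made after seeing the data, the Tgfb1 group means moved from between 38.5% and 53.6% to between 56.5% and 71.4%, and Tgfb3 in fl/fl tumors to 27.9%. In fl/fl tumor replicates 2 and 3 Tgfb1 then led, with 48.9% and 45.3% against 35.1% and 34.9% for Tgfb3.

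**Figure D2:**
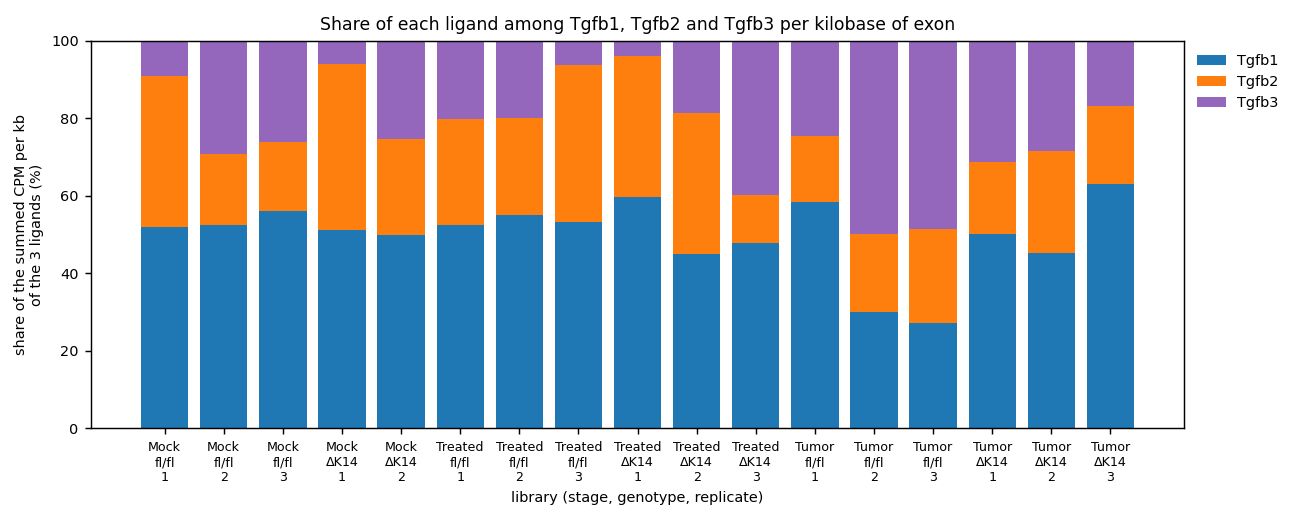
Stacked bars of the share (%) of Tgfb1, Tgfb2 and Tgfb3 in their summed CPM per kilobase of exon, 1 bar per library. Tgfb3 takes 49.9% and 48.5% in fl/fl tumor replicates 2 and 3 and 16.9% to 31.4% in the ΔK14 tumors.

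Ltbp1 (ENSMUSG00000001870, chr17:75005568-75392512), which anchors latent TGF-β to fibrillin-rich matrix, showed the largest change of the 10 genes. Skin libraries held 5.74 to 26.1 CPM, namely 10.2, 26.1 and 16.1 in mock fl/fl, 8.12 and 11.2 in mock ΔK14, 16.1, 17.8 and 13.99 in treated fl/fl and 5.74, 10.8 and 14.2 in treated ΔK14. The ΔK14 papillomas held 197, 197 and 257 CPM. The fl/fl papillomas split, with 197 CPM in replicate 1 and 15.1 and 19.99 CPM, levels within the skin range, in replicates 2 and 3. In ΔK14, Ltbp1 rose 19.7-fold from treated skin (4.30, SE 0.32, adjusted p = 0.000173) and 21.2-fold from mock skin (4.403, SE 0.33, adjusted p = 0.00461) by edgeR, and both calls held without any single library. In fl/fl the differences of 2.21 (SE 0.90, adjusted p = 0.107) and 2.10 (SE 0.96, adjusted p = 0.211) did not pass edgeR's quasi-likelihood test. The Ltbp1 difference from treated fl/fl skin did pass edgeR's exact test (adjusted p = 0.0398), and both passed in a single edgeR fit of all libraries (0.0411 and 0.0459) and with no low-count filter (2.76e-07 and 0.00622), while DESeq2 gave no adjusted p for either. Without fl/fl tumor replicate 1 the quasi-likelihood differences were 0.11 and -0.0022 on the log2 scale.

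Ltbp3 (ENSMUSG00000024940, chr19:5740904-5758532), which binds the same latent complexes, went the other way from treated skin to tumor. It measured 71.9, 34.6 and 45.7 CPM in mock fl/fl and 68.2 and 37.9 in mock ΔK14, then 97.5, 90.6 and 121 in treated fl/fl and 90.4, 98.7 and 53.6 in treated ΔK14. Tumors held 46.7, 71.5 and 71.5 CPM in fl/fl and 36.7, 38.7 and 50.7 CPM in ΔK14, all of them under every treated library of the same genotype. In ΔK14 it fell 2.08-fold from treated skin (-1.05, SE 0.27, adjusted p = 0.0162, edgeR), just past the fold of 2 that a call required. The call was lost without treated replicate 1 or 2 (log2 fold change -0.96 and -0.85) and without tumor replicate 1 or 2 (-0.94 and -0.96), as well as with no low-count filter (-0.98) and in a single fit of all libraries (-0.94). In fl/fl the fall was smaller and missed the threshold (-0.73, SE 0.23, adjusted p = 0.0551, edgeR), though it was called under total-count scaling. Against mock skin Ltbp3 was not called, and tumors overlapped mock libraries in both genotypes. The differences there were 0.28 (SE 0.36, adjusted p = 0.649) in fl/fl and -0.44 (SE 0.33, adjusted p = 0.392) in ΔK14 by edgeR.

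The start-site windows of 8 members were found in RefSeq (GRCm38.p6), those of Tgfb3 and Smad7 not. The AP-1 type heptamer TGANTCA, searched on both strands, was present in 7.81% of 32851 windows of 250 bases before to 50 after a start. Among the members' 10 windows it was in that of Ltbp3 alone, with its first base 6 bases before the start. It is shown with the heptamer in capitals because TPA is a known activator of AP-1. The Smad-type motifs GTCTAGAC and CAGACA were searched too. The first was in 0.213% of all windows and in none of the members' windows. The second was in 21% of all windows and in windows of Tgfb2, Ltbp1, Ltbp3 and Tgfbr1. These matches describe letters, and no factor was measured.
Ltbp3, chr19:5740884-5740910, plus strand: taagttctttTGAGTCAgacactggat

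Ltbp2 (ENSMUSG00000002020, chr12:84783212-84876532), a matrix protein that does not bind latent TGF-β, was close to the detection floor. It had 1 to 81 counts per library and 0.271 to 10.7 CPM. It held 8.80, 10.7 and 5.75 CPM in treated fl/fl, above mock fl/fl (0.666, 5.50 and 3.58), and its differences did not pass the test in any comparison (edgeR, smallest unadjusted p = 0.0739). Without fl/fl tumor replicate 3 (10.2 CPM) its tumor difference from treated fl/fl skin was -1.89 (adjusted p = 0.0471, edgeR). Its exons share 9.34% of their length with D030025P21Rik on the other strand, and whether the counts used strand is not given in the sources used here.

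Tgfbr2 (ENSMUSG00000032440, chr9:116084293-116175360), the ligand-binding type II receptor, was high in papillomas of both genotypes. Treated skin held 47.7, 63.8 and 37.5 CPM in fl/fl and 24.9, 47.5 and 61.4 CPM in ΔK14. Tumors held 148, 144 and 113 CPM in fl/fl and 156, 205 and 226 in ΔK14, without overlap with treated skin. Mock skin was split, at 131 and 136 CPM in fl/fl replicates 2 and 3 and 90.1 in ΔK14 replicate 2, but 36.3 and 34.4 in the replicates 1. From treated skin to tumor Tgfbr2 rose 2.67-fold in fl/fl (1.42, SE 0.22, adjusted p = 0.00547) and 4.10-fold in ΔK14 (2.03, SE 0.31, adjusted p = 0.00208) by edgeR, and both calls held without any single library. Scaling by total counts in place of TMM left 0.94 in fl/fl, under the fold of 2. Against mock skin the differences were 0.39 (SE 0.47, adjusted p = 0.634) in fl/fl and 1.56 (SE 0.44, adjusted p = 0.0590) in ΔK14 by edgeR. In ΔK14 the latter was 1.08 without mock replicate 1 and 2.497 without mock replicate 2, each with a single mock library left. With all libraries Tgfbr2 passed there in DESeq2 (adjusted p = 0.00895), edgeR's exact test (0.0121), a single fit (0.0428), with no low-count filter (9.83e-05), with the identical columns as 2 libraries (0.0375) and with a term for mock replicate 1 (0.0266).

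Tgfbr1 (ENSMUSG00000007613, chr4:47353222-47414931), the type I receptor kinase, changed less than its partner. It measured 121, 42.6 and 52.1 CPM in mock fl/fl, 106 and 42.5 in mock ΔK14, 59.3, 61.4 and 83.7 in treated fl/fl and 102, 89.8 and 66.3 in treated ΔK14. Tumors held 67.7, 125 and 83.9 CPM in fl/fl and 108, 148 and 140 in ΔK14. Only the ΔK14 tumors lay above all skin of their genotype, by 0.52 (SE 0.22, adjusted p = 0.0905) over treated and 0.73 (SE 0.41, adjusted p = 0.256) over mock skin in edgeR's fit. Without mock ΔK14 replicate 1 the latter was 1.60, with a single mock library left.

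Smad7 (ENSMUSG00000025880), the inhibitory Smad that TGF-β itself induces, was split within mock skin in the direction opposite to Tgfbr2. Replicate 1 held 128 CPM in fl/fl and 130 in ΔK14, against 15.7, 18.6 and 18.4 CPM in the other mock libraries. Treated skin held 65.1, 51.3 and 101 CPM in fl/fl and 143, 70.8 and 42.9 CPM in ΔK14, and tumors 72.7, 81.1 and 86.2 CPM and 53.7, 87.8 and 82.1 CPM. No Smad7 comparison passed edgeR's test with all libraries. Against mock skin the tumor difference was 0.52 (SE 0.76) in fl/fl and -0.11 (SE 0.70) in ΔK14, with adjusted p = 0.699 and 0.930. Without mock replicate 1 the difference became 2.21 in fl/fl (adjusted p = 0.00294, edgeR). In ΔK14 it became 1.98, with a single mock library left. The Smad7 result thus turned on which mock libraries were used.

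Tgfbi (ENSMUSG00000035493, chr13:56609523-56639562), an integrin-binding matrix protein named for its induction by TGF-β, had the highest level per kilobase of exon of the 10 genes, with group means of 41.6 to 219 CPM per kilobase. Mock skin held 52.3, 541 and 732 CPM in fl/fl and 45.2 and 713 CPM in ΔK14, the low values again being the replicates 1. Treated skin held 179, 262 and 57.8 CPM in fl/fl and 21.4, 96.3 and 353 CPM in ΔK14. Tumors held 700, 798 and 979 CPM in ΔK14, above all treated skin, and 793, 220 and 217 CPM in fl/fl. In ΔK14, Tgfbi rose 5.01-fold from treated skin (2.33, SE 0.77, adjusted p = 0.0421, edgeR). This call was lost without treated replicate 2 (adjusted p = 0.138) or tumor replicate 1, 2 or 3 (0.0722, 0.0788 and 0.105), and also under total-count scaling (0.0606) and in a single fit of all libraries (0.119). The fl/fl difference was 1.28 (SE 0.64, adjusted p = 0.175, edgeR), with tumor replicate 1 (793 CPM) far above replicates 2 and 3. Against mock skin Tgfbi was not called in either genotype, and tumor and mock libraries overlapped. The differences were -0.14 (SE 0.88, adjusted p = 0.935) in fl/fl and 1.03 (SE 0.93, adjusted p = 0.471) in ΔK14 by edgeR.

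**Figure D3:**
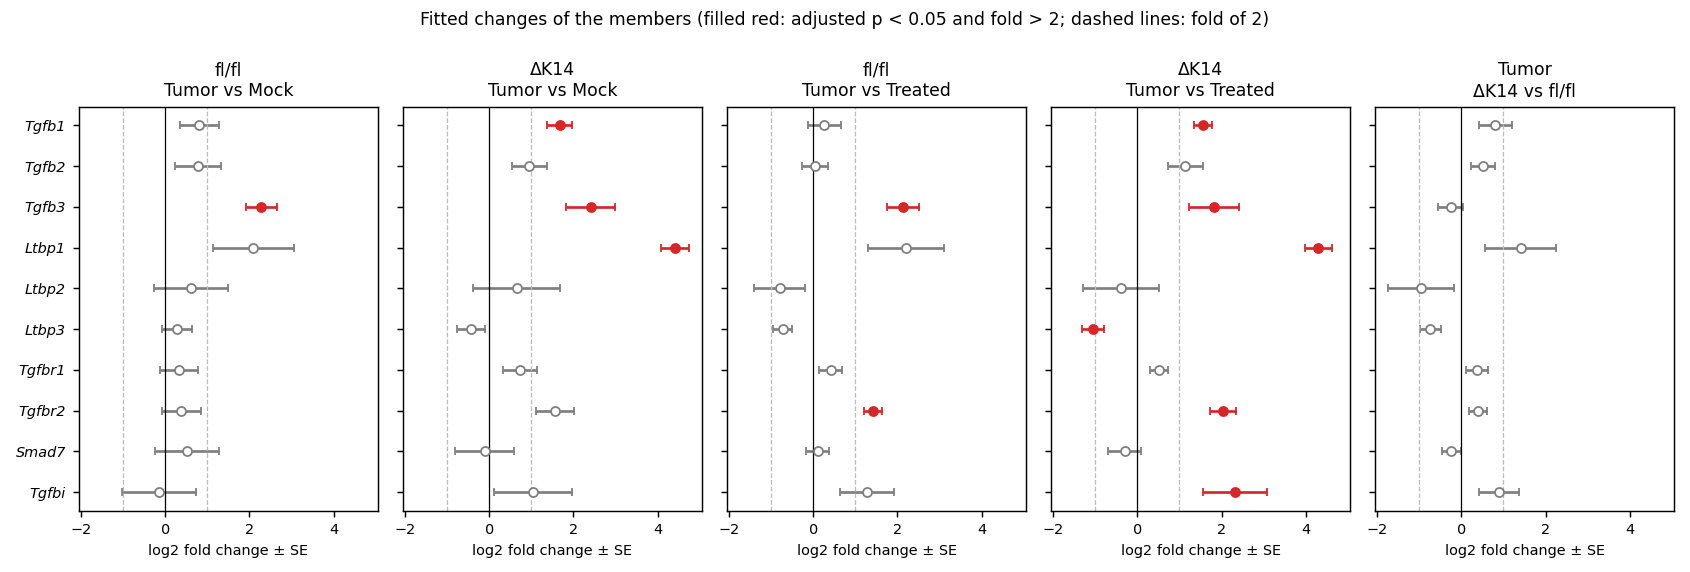
Log2 fold change ± SE of the 10 genes in 5 comparisons from edgeR's fits, with 0 as a solid line, a fold of 2 as dashed lines and called genes filled in red. From treated skin to tumor 6 members are called in ΔK14, Ltbp1 highest at 4.30, and 2 in fl/fl, Tgfb3 (2.12) and Tgfbr2 (1.42), while none is called between genotypes within tumors.

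Counted together, papillomas against treated skin gave 6 of 10 members called in ΔK14, 5 higher (Tgfb1, Tgfb3, Ltbp1, Tgfbr2 and Tgfbi) and 1 lower (Ltbp3). The share over all 15289 genes tested was 26%, 10.5% higher and 15.5% lower. In fl/fl, 2 members were called, Tgfb3 and Tgfbr2, both higher, where 18% of 15362 genes were called and 7.5% were higher. Against mock skin 3 members were called higher in ΔK14 (Tgfb1, Tgfb3 and Ltbp1, with 14.3% of 15027 genes called and 7.05% higher) and 1 in fl/fl (Tgfb3, with 4.11% of 15394 genes called and 2.22% higher). Without mock replicate 1 the fl/fl count was 3, where the genes called in all also rose, to 3277 of 15636. In ΔK14 this would leave a single mock library. The median log2 fold change of the members was 1.35 in ΔK14 and 0.34 in fl/fl against treated skin, where the median of all genes was -0.03 and -0.02. Against mock skin it was 0.996 and 0.57, with -0.06 and -0.05 for all genes. Tumors lay above all treated libraries of their genotype in 7 members in ΔK14 (28.4% of all genes) and 2 in fl/fl (21.9%), and below them in 1 member each, Ltbp3 (23.8% and 24% of all genes). They lay above all mock libraries in 6 members in ΔK14 (28.6%) and 1 in fl/fl (15.5%). Scaling by total counts moved the median of all genes to between -0.50 and -0.30 in these 4 comparisons. Against treated skin the members called were then 3 higher and 1 lower in ΔK14, and 1 higher (Tgfb3) and 1 lower (Ltbp3) in fl/fl.

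Cell type markers moved in the same comparison. From treated skin to tumor, 6 of 7 basal keratinocyte markers rose in ΔK14 and 2 of 7 in fl/fl, with medians of 1.86 and 1.02 on the log2 scale. Of 10 hair follicle markers, 7 fell and 1 rose in each genotype, with medians of -4.52 and -3.69. Their summed level was 1119 to 2205 CPM in treated skin, 699 to 1619 CPM in fl/fl tumors and 441 to 641 CPM in ΔK14 tumors. The part of these markers in the members' changes was not tested.

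The genotypes were then compared within each stage, which asks whether loss of TTP changed these transcripts. By edgeR's quasi-likelihood test 0 of 10 members were called in mock skin, in treated skin and in papillomas. The share over all genes was 0% of 15920 in mock skin, 0.00616% of 16232 in treated skin (Zfp36 alone) and 0.0284% of 14067 in papillomas. In mock skin the deleted gene Zfp36 itself was not called (-4.13, SE 0.86, unadjusted p = 0.00395, adjusted p = 0.99998, edgeR). The absence of calls there therefore cannot decide whether the members changed. At an unadjusted p under 0.05 there were 0, 1 and 1 members, and DESeq2's Wald test and edgeR's exact test called 0 in each stage. These 2 tests called more genes in all, 3 and 2 in mock skin, 36 and 44 in treated skin and 366 and 368 in papillomas. The 1 in treated skin was Tgfb1, whose ΔK14 libraries (31.3 to 44.1 CPM) all lay under the fl/fl ones (45.5 to 55.3), by -0.45 (SE 0.18, adjusted p = 0.897, edgeR). Libraries of the genotypes also did not overlap, with ΔK14 lower, in 5.93% of all genes there. The 1 in papillomas was Ltbp3 (-0.74, SE 0.25, adjusted p = 0.262, edgeR).

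In papillomas the differences with ΔK14 higher were largest for Ltbp1 (1.41, SE 0.85), Tgfbi (0.89, SE 0.48) and Tgfb1 (0.80, SE 0.39), with adjusted p of 0.481, 0.442 and 0.401 by edgeR. On the lower side Ltbp2 differed by -0.95 (SE 0.78). ΔK14 tumors lay above all fl/fl tumors in 2 members, Ltbp1 and Tgfbr2, where 13.6% of all genes did, and for Ltbp1 the gap was between 196.67 and 196.93 CPM. Leaving out fl/fl tumor replicate 1 changed the outcome. Tgfb1 then differed by 1.46 (adjusted p = 0.00152), Ltbp1 by 3.54 (adjusted p = 2.08e-05) and Tgfbi by 1.81 (adjusted p = 0.000273) in edgeR's fit, with 2613 genes called in place of 4. The 3 carriers of TATTTAT did not pass the test in any stage with all libraries included. In mock skin, treated skin and papillomas the ΔK14 minus fl/fl difference was 0.37, -0.53 and 0.52 for Tgfb2, -0.68, -0.17 and 0.40 for Tgfbr2 and 0.41, 0.21 and -0.24 for Smad7.

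**Figure D4:**
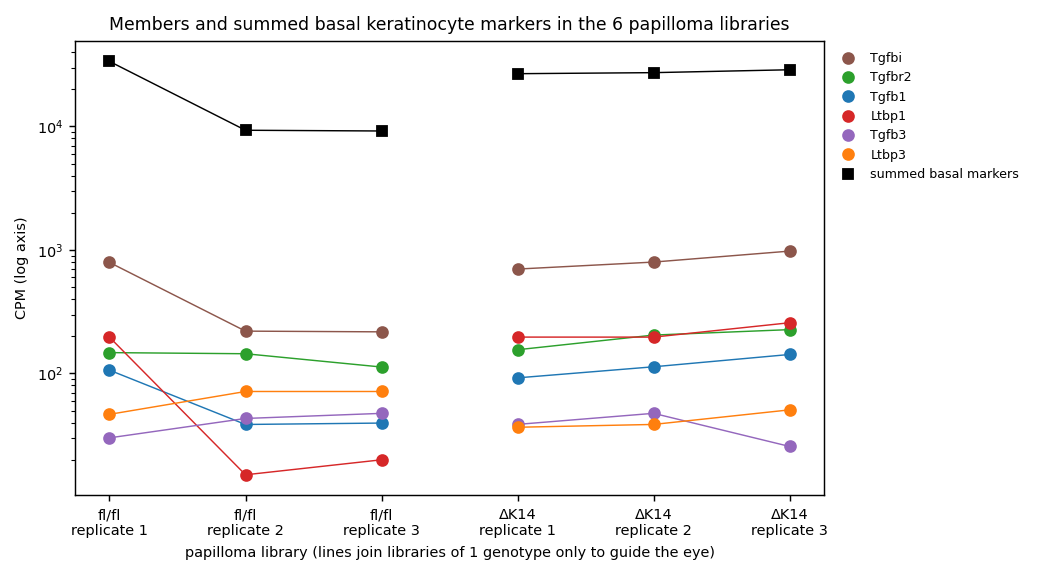
CPM on a log axis of 6 members and the summed CPM of 7 basal keratinocyte markers in the 6 papilloma libraries, with lines joining libraries of 1 genotype as a guide only. In fl/fl replicate 1, Ltbp1, Tgfb1, Tgfbi and the basal marker sum (33655) stand at the level of the ΔK14 tumors (26763 to 28796), and in fl/fl replicates 2 and 3 all of them are lower (marker sums 9322 and 9195).

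The basal keratinocyte marker sum moved with these papilloma values. The basal marker sum was 33655, 9322 and 9195 CPM in the fl/fl tumors and 26763 to 28796 CPM in the ΔK14 tumors, so that fl/fl replicate 1 stood with the ΔK14 tumors here as it did for Ltbp1, Tgfb1 and Tgfbi. Krt5 and Krt14 made up most of that sum (12120 and 15693 CPM in fl/fl replicate 1). Epcam, in the same list, went the other way, with 176 CPM in fl/fl replicate 1 against 466 and 345 in replicates 2 and 3. It was 190 to 417 CPM in ΔK14 tumors. Between genotypes in papillomas 0 of 7 basal markers were called by edgeR, with a median of 0.60. All 7 were detected in every library. Leukocyte markers summed to 68.6 to 158 CPM in fl/fl tumors and 636 to 911 CPM in ΔK14 tumors, replicate 1 of fl/fl (158) being with its own genotype there, and Ptprc itself had 0 to 8 counts in any tumor. Most of that sum was S100a8, a calprotectin subunit that keratinocytes can express too, at 46.3 to 124 CPM in fl/fl and 570 to 820 CPM in ΔK14 tumors. The other leukocyte markers summed to 22.3 to 36.1 and 65.9 to 95.3 CPM, and of 5 leukocyte markers tested between genotypes in papillomas 0 were called by edgeR (2 at an unadjusted p under 0.05), with a median of -0.02. The part of cell composition in the papilloma differences was not tested. In sorted bulk samples, a change in the mix of cells and a change of RNA per cell cannot be told apart.

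Whether a change between stages differed by genotype was tested by interaction terms. None of the 10 members was called in any of the 3 (edgeR), where 0% of 17694 genes were called for treated against mock skin, 0% of 17388 for tumor against mock skin and 0.0118% of 17017 for tumor against treated skin. At an unadjusted p under 0.05 there were 0, 0 and 1 members, and DESeq2 called 0 in each, with 0, 31 and 230 genes called in all. The 1 was Tgfb1, whose rise from treated skin to tumor was larger in ΔK14 by 1.32 (SE 0.47, adjusted p = 0.279, edgeR). For Ltbp1 the term was 2.12 (SE 1.02, adjusted p = 0.398) against treated and 2.27 (SE 1.25, adjusted p = 0.701) against mock skin. Without fl/fl tumor replicate 1 edgeR called Tgfb1 (1.94, adjusted p = 0.00296) and Ltbp1 (4.22, adjusted p = 0.000375) against treated and Ltbp1 (4.42, adjusted p = 0.0263) against mock skin.

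Treated was compared with mock skin to see what the chemical protocol did outside tumors. No member was called in either genotype by edgeR's quasi-likelihood test, with 0% of 16601 genes called in fl/fl and 0% of 15891 in ΔK14. DESeq2 and edgeR's exact test also called 0 members, with 118 and 104 genes called in fl/fl and 71 and 67 in ΔK14. At an unadjusted p under 0.05 there was 1 member in fl/fl (Ltbp3, 1.03, SE 0.30, adjusted p = 0.751, edgeR) and 0 in ΔK14. In fl/fl all treated libraries lay above all mock libraries for Tgfb1, Ltbp2 and Ltbp3, as for 5.42% of all genes. Without mock fl/fl replicate 1, 5 members were called and 2587 genes in all. Smad7 (2.11, adjusted p = 0.00414), Tgfb2 (1.67, adjusted p = 0.0109) and Ltbp3 (1.39, adjusted p = 0.00379) were then higher in treated skin, and Tgfbr2 (-1.41, adjusted p = 0.00476) and Tgfbi (-1.91, adjusted p = 0.0324) lower, by edgeR. In ΔK14 leaving out either mock library called none.

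Across the 11 skin libraries 5 of the members followed the basal keratinocyte markers closely. Tgfbi and Tgfbr2 were high where the marker sum was high, with Pearson's r on the log scale of 0.97 and 0.94, and Smad7, Tgfbr1 and Tgfb2 were low there, with r of -0.97, -0.94 and -0.87. Treated ΔK14 replicate 1 is an example, with a marker sum of 3432 CPM, the highest Smad7 (143 CPM) and the lowest Tgfbi and Tgfbr2 (21.4 and 24.9 CPM). Without the 2 mock replicates 1 the values over 9 libraries were 0.99, 0.96, -0.96, -0.91 and -0.85, and over the 6 treated libraries 0.99, 0.96, -0.99, -0.83 and -0.73. The other 5 were looser over the 11 libraries, with r of 0.79 (Tgfb3), 0.75 (Ltbp1), 0.59 (Ltbp2), -0.63 (Tgfb1) and -0.68 (Ltbp3). These correlations share libraries and scaling factors and describe these libraries only. In the 6 tumors Tgfbi kept r = 0.98, on 2 low and 4 high libraries, while Smad7 (53.7 to 87.8 CPM) had -0.36 and Tgfbr1 0.04. Tgfbr2 had 0.67, Ltbp1 0.98 and Ltbp3 -0.87 there. The sign turned for Tgfb2 (0.45), Tgfb1 (0.96), Tgfb3 (-0.61) and Ltbp2 (-0.44). The summed CPM of 8 differentiated keratinocyte markers went largely the same way as the basal sum in skin. It was 1003 and 899 in the mock replicates 1, against 7340 to 9355 in the other mock libraries. Treated ΔK14 replicate 3 was the highest treated library in both sums (10577 differentiated and 12662 basal), but the lowest library differed. Which of these sums the members followed was not tested.

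**Figure D5:**
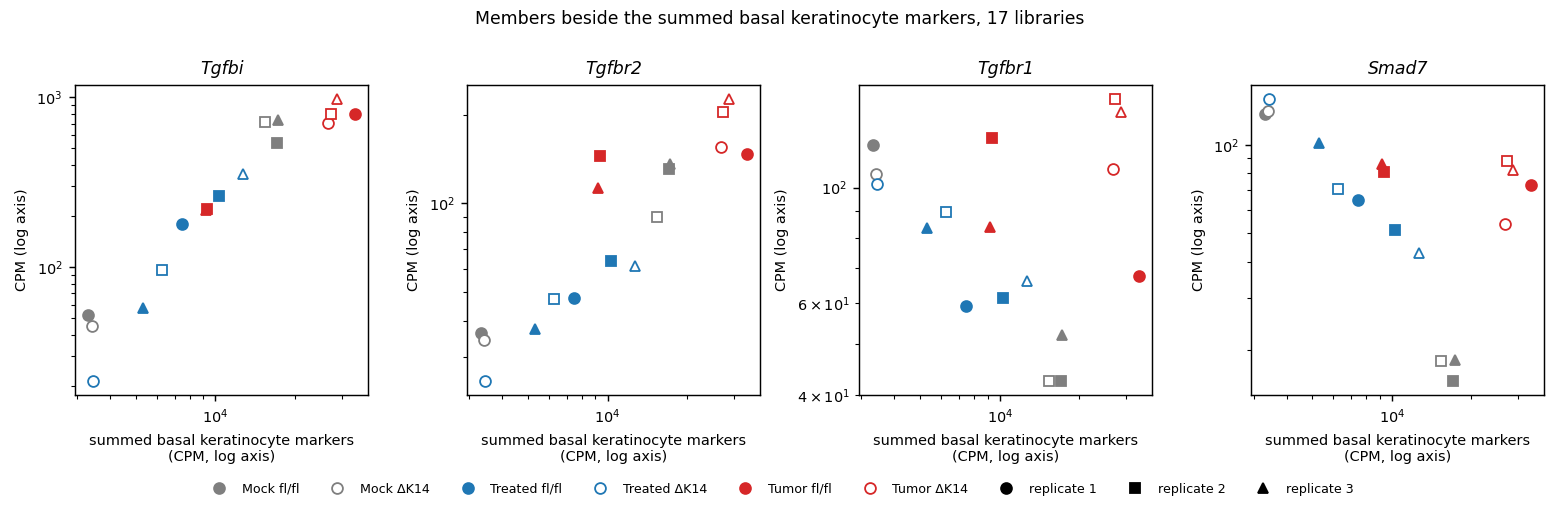
CPM of Tgfbi, Tgfbr2, Tgfbr1 and Smad7 against the summed CPM of 7 basal keratinocyte markers, both axes log, 1 point per library (colors by stage, filled fl/fl, open ΔK14, shape for the replicate). In skin (grey and blue) Tgfbi and Tgfbr2 rise and Tgfbr1 and Smad7 fall along the axis. For Tgfbr1 and Smad7 tumors (red) lie off that line. For Tgfbr2, fl/fl tumor replicates 2 and 3 (144 and 113 CPM) lie above skin libraries of similar marker sum, and the other tumors lie beyond the marker sums of skin.

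A list of genes that release, bind or anchor TGF-β moved in both directions in papillomas, with binders such as Dcn and Ltbp4 among those that fell. Against treated skin in ΔK14, 9 of 20 tested rose and 5 fell, with a median of 0.56. Over all genes tested against treated skin, 26% were called in ΔK14 and 18% in fl/fl. The integrin chain Itgb1, a partner of αv, rose by 2.97 (SE 0.22, adjusted p = 0.000173), the gelatinase Mmp9 by 7.43 (SE 0.83, adjusted p = 0.000644) and the proprotein convertase Furin by 1.32 (SE 0.16, adjusted p = 0.000856), whereas the TGF-β-binding proteoglycan Dcn changed by -8.17 (SE 0.76, adjusted p = 0.000336), all by edgeR. In fl/fl 3 of 19 rose and 5 fell, with the αv partner Itgb6 at 1.80 (SE 0.26, adjusted p = 0.00438), Dcn at -5.25 (SE 0.50, adjusted p = 0.00121), Ltbp4 at -1.92 (SE 0.27, adjusted p = 0.00392) and Mmp2 at -1.94 (SE 0.34, adjusted p = 0.00782) by edgeR. Against mock skin 7 of 18 rose and 2 fell in ΔK14, with Itgb1, Furin and Mmp9 among the former and Dcn among the latter. In fl/fl 2 of 19 rose there (Mmp9 and the αv partner Itgb8) and 1 fell (Dcn). Over all genes 14.3% and 4.11% were called there. Fibroblast markers, of which Dcn is one, summed to 445 to 1704 CPM in skin and 151 to 535 CPM in tumors, and their part in the lower values was not tested.

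Of 11 further receptors tested against treated skin, 2 rose and 2 fell in ΔK14 and 0 rose and 3 fell in fl/fl. Over all genes 26% and 18% were called. The decoy receptor Bambi fell in both, with -3.76 (SE 0.60, adjusted p = 0.00238) in ΔK14 and -2.83 (SE 0.38, adjusted p = 0.00325) in fl/fl, as did the activin receptor Acvr2b (-1.94 and -1.45, adjusted p = 0.00660 and 0.0343, edgeR). The BMP receptor Bmpr1b (2.55, SE 0.42, adjusted p = 0.00267) and Acvr1 (1.04, SE 0.26, adjusted p = 0.0143) rose in ΔK14, and the activin receptor Acvr1b fell by 1.37 (SE 0.18, adjusted p = 0.00286) in fl/fl, by edgeR. Against mock skin Bambi and Acvr2b were the only 2 called, both lower, in ΔK14, and 0 of 11 were called in fl/fl, with 2 at an unadjusted p under 0.05. Over all genes 14.3% and 4.11% were called there.

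Among 21 Smads and their regulators, 3 rose and 2 fell from treated skin to tumor in ΔK14, and 4 rose and 0 fell in fl/fl. These counts were near the share of all genes called, 26% in ΔK14 and 18% in fl/fl. The receptor-activated Smad3 rose in both, by 2.01 (SE 0.30, adjusted p = 0.00189) and 1.16 (SE 0.33, adjusted p = 0.0382), as did Pmepa1, a TGF-β-induced inhibitor of Smad activation (1.76, SE 0.28, adjusted p = 0.00234, and 1.95, SE 0.22, adjusted p = 0.00204), by edgeR. The ubiquitin ligase Smurf1 rose in ΔK14 (1.58, SE 0.22, adjusted p = 0.001495) and Smad9 fell by 3.14 (SE 0.63, adjusted p = 0.00615), while Strap (1.08) and Nedd4l (1.503) rose in fl/fl (adjusted p = 0.0122 and 0.0401, edgeR). Against mock skin, 4 of 20 rose in ΔK14 (Smad3, Pmepa1, Skil and Smurf1) and 1 of 20 in fl/fl (Pmepa1), and 0 fell. Over all genes 14.3% and 4.11% were called there.

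Transcripts responsive to TGF-β were split as well. The list was planned as transcripts known to rise with TGF-β, but whether each does so in these cells was not tested. From treated skin to tumor 9 of 24 rose and 6 fell in ΔK14, and 5 rose and 4 fell in fl/fl, with medians of 0.52 and -0.06. Over all genes 26% and 18% were called. In ΔK14 the chromatin factor Hmga2 (9.51, SE 0.68) and the matricellular Cyr61 (2.03, SE 0.20) rose, with adjusted p of 0.000173 and 0.000437 by edgeR. In fl/fl the integrin chain Itga5 (3.25, SE 0.34) and the cell cycle inhibitor Cdkn1a (1.99, SE 0.21) rose, with adjusted p of 0.00176 and 0.00169 by edgeR. Against mock skin 6 of 25 rose and 2 fell in ΔK14, and 3 of 24 rose and 2 fell in fl/fl, where fibronectin Fn1 fell by 3.69 (SE 0.60, adjusted p = 0.0244, edgeR). Over all genes 14.3% and 4.11% were called there. The list shares a gene with the fibroblast markers, of which 4 of 8 tested fell in that fl/fl comparison, and their part was not tested. Pmepa1 and Skil count in both of the last lists. Between genotypes, between treated and mock skin and in the interactions, 0 genes of these 4 lists were called by edgeR, with 0 to 9 per list at an unadjusted p under 0.05.

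The genes whose log2 CPM ran closest to each member over the 17 libraries, of 18252 genes, are given as a description. They were Il18rap (Pearson's r 0.96) and Has3 (0.95) for Tgfb1, S100a6 (0.96) and Esd (0.96) for Ltbp1, Tns4 (0.98) and Col23a1 (0.98) for Tgfbr2 and Anxa2 (0.98) and Serpinb10 (0.98) for Tgfbi. For Tgfb3 they were AC134328.1 (0.95) and Tpd52 (0.94), for Smad7 Cep76 (0.95) and Adgrg1 (0.94), and for Tgfbr1 Hacd1 (0.93) and Gpr50 (0.93). Ltbp3 had Hectd2 (0.92) and Trf (0.92), Tgfb2 had Ankrd9 (0.91) and Zfp428 (0.91), and Ltbp2 had the loosest neighbours, Wscd2 (0.81) and Slc26a6 (0.80).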

How the data were processed

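RNA was extracted from sorted epidermal cells, and low-input libraries (Ovation SoLo) were sequenced by the study. The authors deposited a table of raw read counts per gene, not normalized. The submitters' processing notes name Trimmomatic 0.36, STAR 2.5.3, HTSeq 0.9.1, DESeq2 and mm10. The counting program's settings, strand use, duplicate handling and annotation are not given in the sources used here. Of 18 columns 17 were used, since 2 were identical. Counts were tested with edgeR 4.0.16 (limma 3.58.1, R 4.3.3), pairwise, on the groups compared: filterByExpr at default settings, TMM scaling, quasi-likelihood F test, two-sided, Benjamini-Hochberg adjustment over all genes tested. Calls required an adjusted p below 0.05 with a change of more than 2-fold, the study's own criteria. Alternatives were DESeq2 1.42.0, edgeR's exact test, RLE and total-count scaling, no filter, a mean count of at least 10, a single fit, a replicate block, a term for mock replicate 1, the identical columns as 2 libraries, and each library left out. Where 1 library remained in an arm, it was assumed to vary like the other group. Correlations used log2 CPM with a prior count of 2.

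All 10 members, Zfp36, and of each pathway list up to 4 called genes with the smallest p per comparison were named, except that some genes of the list of TGF-β-responsive transcripts are not reported here by name. The members and lists were chosen with earlier results of these data known. Exon lengths and 3′UTRs came from GENCODE M21 (GRCm38), start-site windows from RefSeq, and CPM per kilobase used the union of exons. Exons of Tgfb2, Tgfb3, Ltbp2 and Ltbp3 overlap other genes by 2.01% to 9.34% of their length. Procedures were tested on simulated data. Since duplicate handling is not given, PCR copies may remain in the counts.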

Additional observations from a re-analysis of the deposited data

How the results depend on the processing

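The count of called members moved by over 1.5 times with the following choices, and the count over all genes often moved with it. With no low-count filter it was 2 between genotypes in papillomas (0 with the filter), 2 for tumor against mock skin and 4 for tumor against treated skin in fl/fl, 6 for tumor against mock skin in ΔK14, and 1 and 3 for the tumor interactions against mock and treated skin. Genes called in all then went from 4 to 1393 between genotypes in papillomas, from 632 to 2595 and from 2764 to 4316 in these fl/fl comparisons, from 2144 to 4154 in ΔK14, and to 188 and 1003 for the interactions. A single fit of all libraries gave 2 for tumor against mock skin in fl/fl, with 3205 genes in all. A term for mock replicate 1 gave 5 for treated against mock skin in fl/fl, 3 for tumor against mock skin in fl/fl and 7 in ΔK14, with 2437, 2977 and 4332 genes in all. That term turned Smad7 in ΔK14 tumors against mock skin from -0.11 to 1.93, and leaving out single libraries gave it values from -0.82 to 1.98. Leaving out single libraries gave 0 to 3 called members between genotypes in papillomas, 0 to 5 for treated against mock skin and 0 to 3 for tumor against mock skin in fl/fl, 1 to 7 for tumor against mock skin and 3 to 6 for tumor against treated skin in ΔK14, and 0 to 1 and 0 to 2 for the tumor interactions. Over all genes the count went from 4 to 2613 between genotypes in papillomas without fl/fl tumor replicate 1. Smaller moves were seen for tumor against treated skin, where ΔK14 had 4 called members under total-count scaling and in the single fit and 7 in DESeq2 and the exact test in place of 6, and fl/fl had 3 in the single fit and the exact test in place of 2. For tumor against mock skin in ΔK14, DESeq2, the exact test, the single fit and the identical columns as 2 libraries gave 4 in place of 3. The causes were not tested.

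With the replicate number as a block, the called members were 1 (mock skin) and 2 (treated skin) for fl/fl tumors and 2 and 6 for ΔK14 tumors. The block removed Tgfb1 in ΔK14 tumors against mock skin (adjusted p = 0.0658) and Tgfb3 against treated skin (0.0540) and added Tgfb2 there (0.0432), by edgeR. Deviations of same-numbered libraries correlated between -0.546 and 0.391 in comparisons with 3 pairs, where not every pair was over 0.1, and between 0.0943 and 0.782 with 2. Between the mock genotypes they were 0.782 and 0.569, and the block there called 110 genes in place of 0 and 0 members. No source used here says what a replicate number stands for, and 2 pairs do not settle whether the mock libraries are paired. Ltbp1, Tgfb1 and Tgfbr2 in ΔK14 tumors against treated skin, Ltbp1 against mock skin there, and Tgfb3 in fl/fl tumors against treated skin stayed called under every alternative run. Depth limits Ltbp2, with 1 to 81 counts. Mock ΔK14 rests on 2 libraries. Of 1918 recomputed values for members, 2 (both Smad7, above) passed in the direction opposite to the reported value, 30 lost and 54 gained a call.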
